A study of Caenorhabditis elegans with 24 samples.

Results

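The glutathione S-transferases of Caenorhabditis elegans were followed across 3 strains and UVC exposure. The family was taken as every probe set whose single annotated gene symbol starts with gst-, gsto- or gstk-, with the brightest probe set kept where a gene had several. This gave 45 genes from 46 probe sets, out of 17118 genes that a probe set named alone. A further probe set names gst-10 together with F56A4.3 and was left out. Of the 49 family genes in the RefSeq gene table, gst-25, gst-34, gst-35 and gst-37 had no probe set naming them alone and were not analysed here.

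Pools of whole young adults, grown at 25°C until 24 h past the vulval crescent stage, came from wild-type N2, from RB864, which carries a deletion in xpa-1 and had been outcrossed 3 times, and from JK1107, which carries a point mutation in glp-1. Each strain was left untreated or given 50 J/m2 of UVC (emission peak 254 nm) and frozen 3 h later; controls were handled alike without the dose. Every one of the 6 groups had 2 arrays from 2007 and 2 from 2008, so n was 4 arrays. XPA is a factor of nucleotide excision repair, and GLP-1 is the Notch receptor that keeps germ line stem cells dividing. Nothing in the labels says that arrays of a group came from separate cultures, so the p-values measure the spread between these samples, which may be technical.

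Glutathione S-transferases join the tripeptide glutathione to electrophilic compounds, which makes them more soluble and ready for export. Nematodes carry a large family of cytosolic enzymes, with smaller omega, kappa and zeta classes. Several members are classical targets of SKN-1, the nematode counterpart of the NRF transcription factors, and gst-4 reporters are widely used to read SKN-1 activity. Much of this detoxification takes place in the intestine and hypodermis, which are somatic tissues.

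Levels are given as log2(intensity + 32) after quantile normalization, called log2 levels here. The lowest possible log2 level is 5.00, and a difference on this scale understates the change of a dim gene. The 2007 arrays were made from 500 pg of RNA and the 2008 arrays from 100 ng with another kit, and the median deposited intensity was 4.24 to 8.42 in 2007 against 68.9 to 191 in 2008. Among the members, the median SD between the paired arrays of a group was 0.56 in 2007 and 0.27 in 2008. Of 540 member values a year, 96 lay at 5.00 in 2007 and 70 in 2008. Both mutated genes were low in their own strain. The log2 level of xpa-1 was 9.08 to 9.92 in N2 controls and 5.37 to 6.59 in xpa-1 controls. It was also below N2 in glp-1 controls, at 6.51 to 7.29. That of glp-1 was 10.40 to 10.58 in N2 controls and 5.00 to 6.86 in glp-1 controls. The gene glp-1 is also among the germ line markers given below, all of which fell in glp-1 controls. The summed intensity of 18 sperm markers ran from 499 to 22639.5 among the 4 N2 control arrays and from 1429 to 4679 among glp-1 controls. Of the 18, 0 passed the test between glp-1 and N2 controls, which with this spread does not show equal levels.

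In untreated animals, many glutathione S-transferases were higher in glp-1 than in N2. Of the 45 members, 23 rose, 1 fell and 21 did not pass limma's test at an adjusted p of 0.05, corrected over all 22548 probe sets. Over all probe sets 37.7% passed in this comparison, 19.7% upward and 18% downward, against 51.1% of members upward. The median member difference was 0.86 on the log2 scale, and the median over all probe sets was 0.065. Among the 24 called members, all 24 had the same sign in both years. The 4 glp-1 arrays lay wholly above the 4 N2 arrays for 16 members, and over all probe sets the groups did not overlap in 29.7%. In whole animals, fewer cells of a type and less RNA per cell cannot be told apart.

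**Figure D1:**
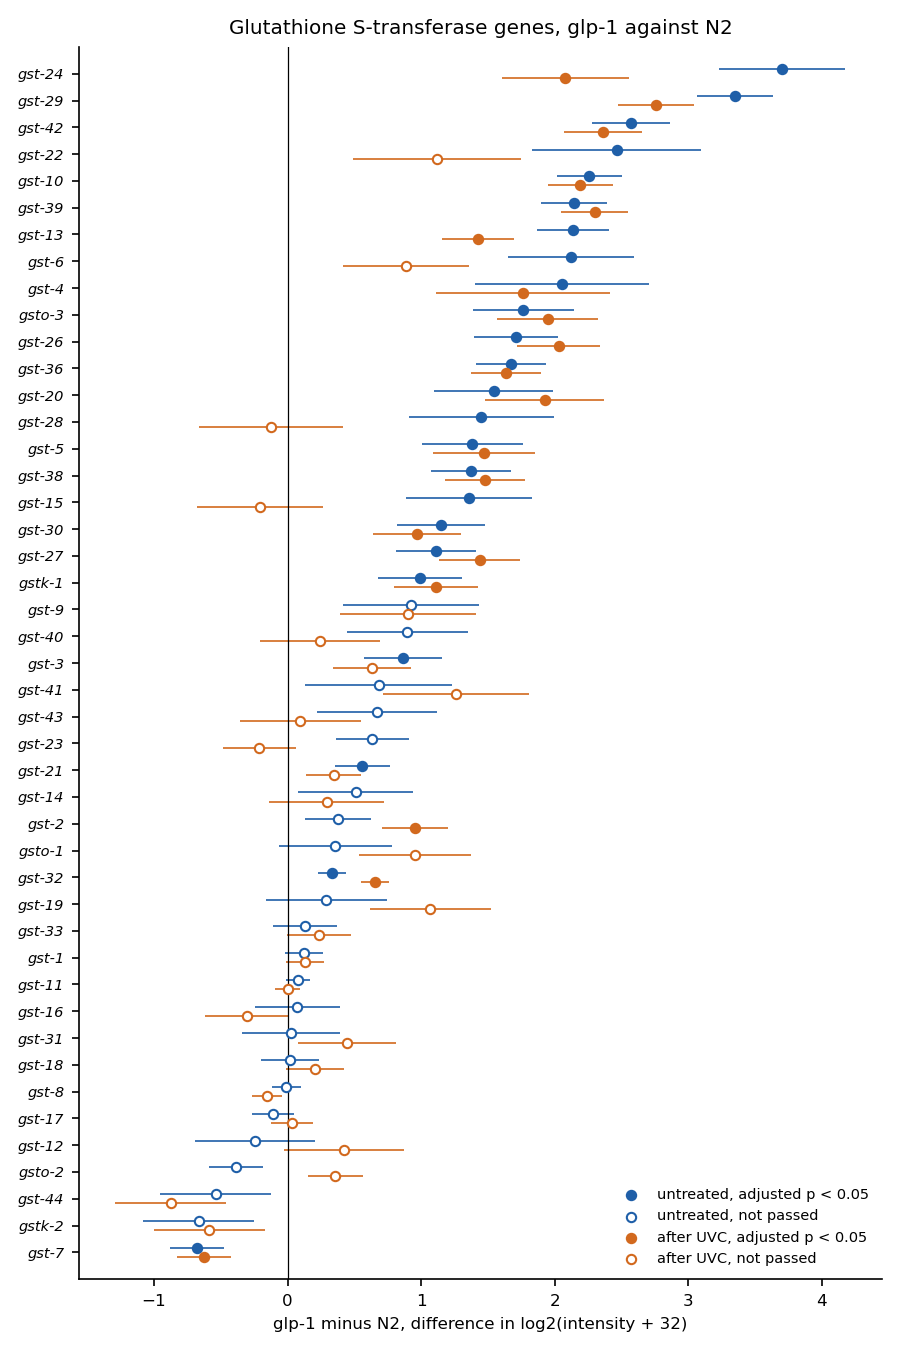
Difference between glp-1 and N2 in log2(intensity + 32) on the horizontal axis for each of the 45 members, in untreated animals (blue) and after UVC (orange), as point and standard error of the limma fit (n = 4 arrays a group); filled points have an adjusted p under 0.05. Untreated differences run from -0.68 for gst-7 to 3.70 for gst-24, and 23 members in untreated animals and 18 after UVC were called higher.

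The makeup of the RNA moved with this comparison. All 10 germ line markers and all 8 oocyte markers fell in glp-1 controls, and their summed intensity was 255 to 956 and 110.5 to 878 there, against 16252 to 18663 and 37369 to 62105 in N2 controls. Intestinal markers rose for 8 of 10 genes, with a summed intensity of 13449.5 to 19909 in N2 controls and 25933 to 34895 in glp-1 controls. The 10 neuronal markers had 5 that rose, with sums of 7128 to 9393 and 13928 to 16033, and muscle markers had 2 of 8 that rose, with sums of 10659 to 16104 and 17557 to 23107. Hypodermal markers were split, with 2 of 8 higher and 3 lower. No marker was at 0 in every array of a group, and the part of these shifts in the family's differences was not tested.

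The family member gst-42 encodes the zeta-class enzyme, which corresponds to maleylacetoacetate isomerase of tyrosine breakdown. Its log2 level was 7.59, 7.30, 7.79 and 7.73 in the 4 N2 control arrays and 9.92, 10.10, 10.25 and 10.43 in the glp-1 controls. The groups lay far apart, and the arrays within each differed by little. The fitted difference was 2.57 with a standard error of 0.29 (limma, adjusted p = 6.5e-07), and it was 2.56 in 2007 and 2.58 in 2008. Before normalization, the 2008 intensities of gst-42 were 377 and 459 in N2 controls and 1405 and 1896 in glp-1 controls. The other zeta-class gene, gst-43, had mean log2 levels of 7.71 and 8.38 in these groups and did not pass (difference 0.67, limma adjusted p = 0.28).

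Enzymes reported to conjugate 4-hydroxynonenal, a toxic product of lipid peroxidation, formed the next group. Of these 5 genes, gst-5, gst-6, gst-10 and gst-24 rose in untreated glp-1 animals and gst-8 stayed near the floor. For gst-10 the N2 controls read 8.75, 9.10, 8.86 and 8.64, and the glp-1 controls 11.01, 11.16, 11.30 and 10.93. This gene had tight arrays in both groups and a difference of 2.26 (SE 0.24, limma adjusted p = 3.0e-07). The probe set shared by gst-10 and F56A4.3 rose by 1.62 (limma adjusted p = 7.7e-05).

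On the scale used here the largest difference in the family was that of gst-24, although with an added constant of 1 those of gst-29 (6.42) and gst-6 (5.46) exceeded its 4.69. Its N2 control arrays read 5.16, 7.38, 6.47 and 7.33, and its glp-1 controls 10.99, 10.99, 9.65 and 9.53. No glp-1 array came near the N2 range, although N2 arrays were widely spread. The difference was 3.70 (SE 0.47, limma adjusted p = 2.7e-06), larger in 2007 at 4.72 than in 2008 at 2.69.

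For gst-6 the N2 controls read 5.06, 5.00, 5.00 and 6.28 and the glp-1 controls 7.35, 6.78, 7.18 and 8.51, so that 3 N2 arrays were at or close to the floor. Its difference was 2.12 (SE 0.47, limma adjusted p = 0.0011), it was 5.46 with an added constant of 1, and with intensities as deposited it was 1.07 and did not pass (limma adjusted p = 0.081). With gst-5 the values were 5.90, 7.78, 7.17 and 6.75 against 8.03, 8.14, 8.65 and 8.31, a rise of 1.38 (SE 0.38, limma adjusted p = 0.0062) that was 0.36 as deposited (limma adjusted p = 0.26). The gene gst-8 was at the floor in 19 of 24 arrays, including every glp-1 array, and so gave no usable difference.

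The SKN-1 reporter gene gst-4 was also higher in glp-1 controls. It read 7.40, 7.62, 7.50 and 6.79 in N2 controls and 9.54, 9.39, 10.05 and 8.55 in glp-1 controls. All glp-1 arrays exceeded all N2 arrays, and the difference was 2.06 (SE 0.65, limma adjusted p = 0.016). Without the second N2 control array of 2008 the difference was 1.74 and no longer passed, and with intensities as deposited it was 1.02 (limma adjusted p = 0.14).

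Other cytosolic members had no common substrate fixed for them; of these 32 genes, 16 rose and 1 fell. One of them, gst-29, read 5.00, 5.00, 6.14 and 5.40 in N2 controls and 8.36, 8.36, 9.65 and 8.56 in glp-1 controls. Its signal was thus close to the floor in N2 and clear in glp-1, and the difference of 3.35 (SE 0.28, limma adjusted p = 1.1e-08) depends on the constant added before the log2, with 6.42 for a constant of 1 and 2.16 for 100. For gst-39 the arrays read 8.93, 7.99, 8.07 and 7.60 against 10.24, 10.03, 10.66 and 10.25, a difference of 2.14 (SE 0.25, limma adjusted p = 8.2e-07). The gene gst-13 was similar, at 7.32, 7.99, 7.48 and 7.81 against 9.47, 10.18, 9.67 and 9.84, also a difference of 2.14 (SE 0.27, limma adjusted p = 2.2e-06). Neither gst-39 nor gst-13 had an N2 array inside the glp-1 range.

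A wider spread was seen for gst-22, which read 7.21, 5.73, 7.25 and 7.64 in N2 controls and 8.78, 9.17, 9.61 and 10.12 in glp-1 controls. The difference of 2.46 (SE 0.63) passed with a limma adjusted p of 0.0037, but not with an added constant of 1 or with the 2007 arrays alone (limma adjusted p = 0.065 and 0.16). Further rises among these cytosolic genes ran from 1.71 for gst-26 and 1.67 for gst-36 down to 0.33 for gst-32, whose N2 arrays were nearly all at the floor.

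One called member went the other way, while 38 of the 45 members had a difference above 0. The differences of gstk-2 (-0.66) and gst-44 (-0.54) were also below 0 and did not pass. The gene gst-7 read 10.34, 10.86, 9.91 and 9.56 in N2 controls and 9.61, 9.26, 9.85 and 9.25 in glp-1 controls. The groups overlapped, and the fall of 0.68 on the log2 scale (SE 0.20, limma adjusted p = 0.011) came mostly from 2007, with year differences of -1.16 and -0.19. It did not pass without the second N2 control array of 2007 or without the second glp-1 control array of 2007, and with array weights, a fit that gives noisier arrays less weight, the difference was -0.29 (limma adjusted p = 0.18).

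The gene gst-1, for a pi-like enzyme, overlapped between the strains. It read 10.62, 10.71, 10.79 and 11.0001 in N2 controls and 11.11, 10.63, 10.91 and 10.98 in glp-1 controls. The difference of 0.13 had a standard error of 0.14 and did not pass (limma adjusted p = 0.55). This depended on the scaling: with 75th percentile scaling the difference was 0.62 (limma adjusted p = 0.021), and as deposited it was -0.24 (limma adjusted p = 0.54). After UVC it was 0.13, 0.64 with 75th percentile scaling and -0.77 as deposited, of which the last 2 passed (limma adjusted p = 0.015 and 0.031).

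**Figure D2:**
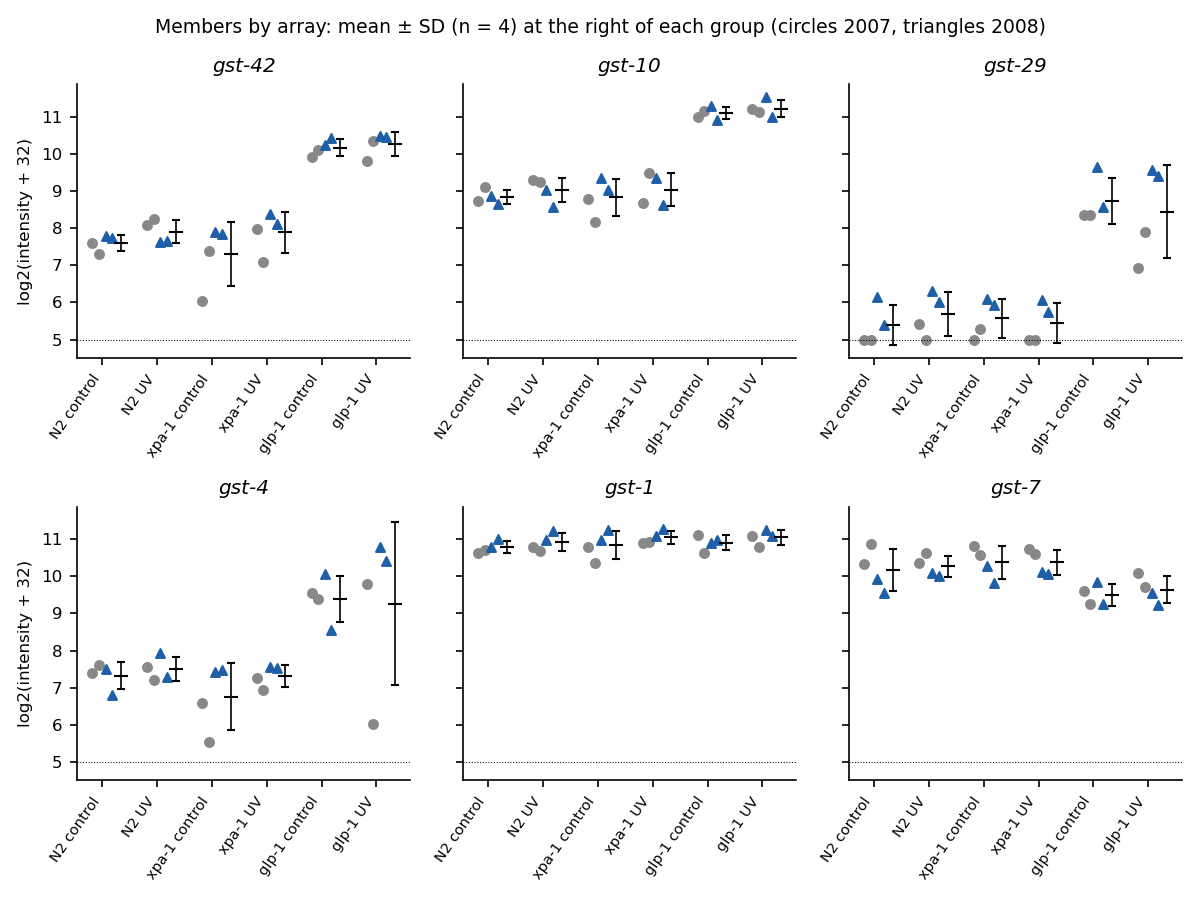
Log2(intensity + 32) on the vertical axis for gst-42, gst-10, gst-29, gst-4, gst-1 and gst-7 in every array, by strain and treatment; circles are 2007 arrays, triangles 2008 arrays, the bar at the right of each group is the mean ± SD (n = 4), and the dotted line is the floor of 5.00. The glp-1 arrays of gst-42 and gst-10 lie above all N2 and xpa-1 arrays, those of gst-1 do not, and 1 glp-1 UVC array of gst-4 is at 6.03.

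Omega-class enzymes act as thiol transferases and dehydroascorbate reductases rather than mainly as conjugating enzymes. Of the 4 omega genes, gsto-3 rose and gsto-1, gsto-2 and gst-44 did not pass. For gsto-3 the N2 controls read 7.91, 8.05, 8.74 and 8.37 and the glp-1 controls 9.90, 9.41, 10.23 and 10.57, with no overlap and a difference of 1.76 (SE 0.38, limma adjusted p = 0.00079). The arrays of gsto-1 overlapped, at 8.99, 8.02, 9.42 and 8.33 against 8.73, 8.74, 10.23 and 8.47 (difference 0.36, limma adjusted p = 0.58). The kappa class, which in worms is found in peroxisomes and mitochondria, was divided. Its gstk-1 read 7.83, 8.87, 8.69 and 8.60 against 8.48, 9.33, 9.92 and 10.22, a rise of 0.99 (SE 0.32, limma adjusted p = 0.017), while gstk-2 had a difference of -0.66 that did not pass (limma adjusted p = 0.24). The gstk-1 call ended without the first N2 control array of 2007 and without either glp-1 control array of 2008. It also ended as deposited (0.28), with 2007 alone (0.56) and with a year term per strain (0.65). The fit with a year term per strain gives the difference at 2007, so the last 2 values are not separate checks.

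Signal set a limit on how many members could be read. There were 23 members that never touched the floor, of which 15 rose and 1 fell in untreated glp-1 animals. Of the 9 members at the floor in 1 to 4 arrays, 3 rose, and of the 13 at the floor in 5 or more arrays, 5 rose. Over all probe sets, whatever their signal, 19.7% passed upward and 18% downward. The dimmest were gst-11, at the floor in 23 of 24 arrays, gst-17 in 20 and gst-8 in 19. The gene gst-40 had a second probe set, and the kept and second probe sets had differences of 0.90 and -0.37, neither of which passed limma's test (adjusted p = 0.13 and 0.53).

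After UVC, glp-1 and N2 were compared on their exposed arrays, in the same fit as the untreated ones and so with a shared year term and spread. In this comparison 18 members were higher in glp-1, 1 was lower and 26 did not pass, against 39.9% of all probe sets called, 20.3% upward and 19.5% downward. The median member difference was 0.89 and that of all probe sets 0.12. The arrays of the strains did not overlap for 13 members, 12 of them higher in glp-1, against 28.8% of all probe sets. The 1 that lay wholly below N2 was gst-44, at 6.03 to 7.17 in N2 and 5.26 to 5.96 in glp-1. It did not pass (limma adjusted p = 0.10). Of the untreated calls, 18 were made again in the same direction, which is 75% of the 24 untreated calls and 94.7% of the 19 calls after UVC. The matching overlap over all probe sets is not given here, so this says nothing particular to the family. The same 10 germ line and 8 oocyte markers fell and 9 of 10 intestinal markers rose, with intestinal sums of 9581 to 18816 in N2 and 22613.5 to 35412 in glp-1.

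The differences of gst-42, gst-29, gst-10 and gst-39 after UVC were between 2.19 and 2.76. For gst-42 the N2 arrays read 8.10, 8.24, 7.64 and 7.67 and the glp-1 arrays 9.81, 10.34, 10.48 and 10.46, a difference of 2.36 (SE 0.29, limma adjusted p = 1.9e-06). With gst-29 they read 5.41, 5.00, 6.31 and 6.02 against 6.92, 7.90, 9.56 and 9.40, a difference of 2.76 (SE 0.28, limma adjusted p = 1.6e-07). Both genes had every glp-1 array above every N2 array, as had gst-10 (difference 2.19, limma adjusted p = 4.5e-07) and gst-39 (2.30, limma adjusted p = 3.3e-07).

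Differences after UVC were smaller for gst-24 and gst-13. The arrays of gst-24 read 8.93, 8.76, 7.75 and 8.20 in N2 and 10.69, 10.85, 10.10 and 10.32 in glp-1, a difference of 2.08 (SE 0.47, limma adjusted p = 0.0013). Those of gst-13 read 8.65, 8.64, 8.27 and 7.99 against 9.25, 9.29, 10.41 and 10.30, a difference of 1.43 (SE 0.27, limma adjusted p = 0.00022). In gst-24 the glp-1 levels with and without UVC were alike, and the N2 levels were higher after UVC.

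Calls were lost after UVC for gst-3, gst-6, gst-15, gst-21, gst-22 and gst-28, and gst-2 was called only after UVC. Whether these differences between strains themselves changed with UVC was tested for every member and passed for none, as given with the UVC results. For gst-6 the glp-1 arrays after UVC read 5.00, 5.00, 7.72 and 8.29, with both 2007 arrays at the floor, and the difference from N2 was 0.89 (limma adjusted p = 0.15). For gst-22 they read 8.44, 5.05, 9.60 and 10.31, the second 2007 array being low (difference 1.12, limma adjusted p = 0.18). The same array was low for gst-4, at 6.03 beside 9.80, 10.80 and 10.42, against 7.56, 7.21, 7.93 and 7.29 in N2. The gst-4 difference of 1.77 (SE 0.65) passed with a limma adjusted p of 0.036, was 2.78 without that array, and did not pass with any 1 of 6 further arrays of these groups left out.

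The fall of gst-7 was also present after UVC, by 0.63 on the log2 scale (SE 0.20, limma adjusted p = 0.018). Its arrays read 10.35, 10.63, 10.09 and 10.00 in N2 and 10.08, 9.72, 9.56 and 9.21 in glp-1, so the groups overlapped slightly. The call ended without the second glp-1 UVC array of 2008, with 75th percentile scaling and with either year alone (limma adjusted p of 0.054 to 0.19).

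The scaling of the arrays changed how many members were called between glp-1 and N2. In 2008 the median deposited intensity was 68.9 to 83.5 on glp-1 arrays and 87.0 to 191 on N2 and xpa-1 arrays, and quantile normalization removes such a difference. With the intensities left as deposited, 9 members were higher and 1 lower in untreated animals, and 10 higher and 2 lower after UVC. The untreated differences of gst-24, gst-29 and gst-42 then were 2.32, 1.75 and 1.60, and all of them passed. The share of all probe sets called as deposited is not given here, so the counts have no background beside them.

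UVC within a strain was the study's other comparison. No member passed limma's test in N2 (0% of all probe sets called), in xpa-1 (0.031%), in glp-1 (0%), or in the mean over the 3 strains (0.031%). At an unadjusted p under 0.05 there were 3 members in N2, 3 in xpa-1, 6 in glp-1 and 6 in the mean, where the share over all probe sets was 2.71%, 5.8%, 7.26% and 6.28%. The median member effect was 0.033 in N2, -0.040 in xpa-1 and 0.021 in glp-1. With array weights, limma called 0 members in N2, 3 in xpa-1, 2 in glp-1 and 6 in the mean. The percentages above belong to the fit without weights and are no background for these counts.

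**Figure D3:**
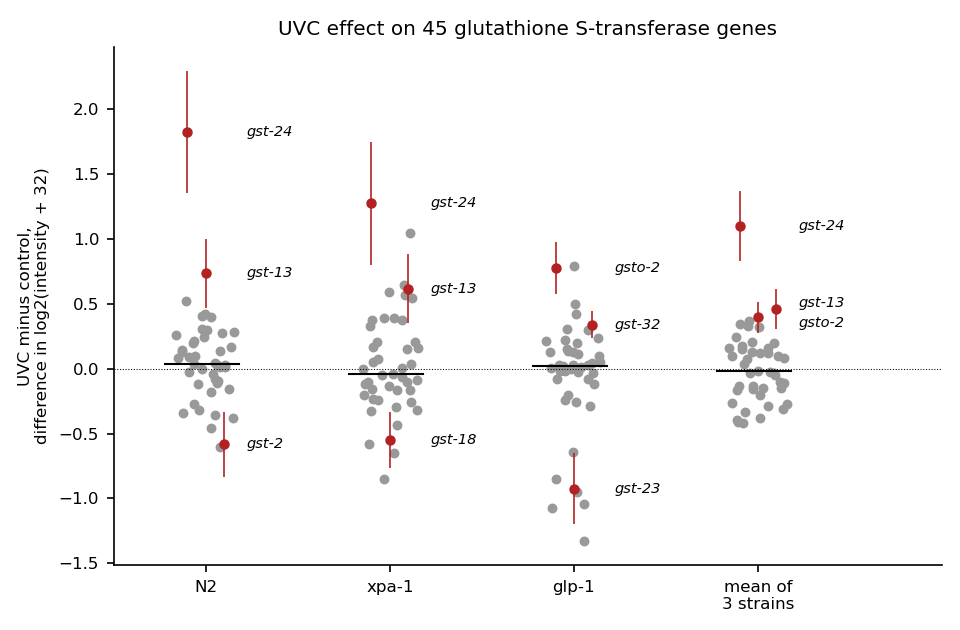
UVC minus control in log2(intensity + 32) on the vertical axis for the 45 members in N2, xpa-1 and glp-1 and for the mean of the 3 strains; each point is a member, the black line is the median, and the 3 members with the smallest p are in red with their standard errors (n = 4 arrays a group). The medians lie near 0, gst-24 stands highest in N2 at 1.83 and in xpa-1 at 1.27, and no member passed the adjusted threshold.

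The member with the smallest p for UVC in N2 was gst-24. Its N2 arrays read 5.16, 7.38, 6.47 and 7.33 without UVC and 8.93, 8.76, 7.75 and 8.20 with it. The groups did not overlap, as for 1.43% of all probe sets, and the difference was 1.83 (SE 0.47) with an unadjusted p of 0.0010 and a limma adjusted p of 1. It was 2.57 in 2007 and 1.08 in 2008, and without the first N2 control array of 2007, the lowest, it was 1.28.

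In xpa-1, gst-24 read 7.01, 6.65, 7.29 and 8.47 without UVC and 9.24, 8.44, 8.31 and 8.52 with it. One control array reached the range of the exposed ones, and the difference was 1.27 (SE 0.47, limma adjusted p = 0.67). In glp-1, where the control level was already 9.53 to 10.99, the arrays after UVC lay at 10.10 to 10.85 and the difference was 0.20 (SE 0.47, limma adjusted p = 0.9996). Over the 3 strains the mean effect on gst-24 was 1.1004 (SE 0.27, limma adjusted p = 0.28). The effect in glp-1 minus that in N2 was -1.62 (SE 0.67), with an unadjusted p of 0.025 and a limma adjusted p of 0.995.

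Next to it in N2 came gst-13, which read 7.32, 7.99, 7.48 and 7.81 in controls and 8.65, 8.64, 8.27 and 7.99 after UVC. The ranges met at 7.99 and the difference was 0.73 (SE 0.27, limma adjusted p = 1). In xpa-1 the arrays of gst-13 read 8.40, 7.59, 7.66 and 8.05, then 8.62, 8.47, 8.75 and 8.34, a difference of 0.62 (SE 0.27, limma adjusted p = 0.81). All 4 exposed arrays exceeded the control mean of their year in both strains. The glp-1 difference of 0.025 differed in sign between 2007 (-0.55) and 2008 (0.60).

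For gst-2 the N2 level was low throughout, at 5.56, 5.84, 5.96 and 5.60 in controls and 5.00, 5.04, 5.59 and 5.00 after UVC. The difference of -0.58 (SE 0.25) did not pass (limma adjusted p = 1), and 3 of the 4 exposed arrays were at or near the floor.

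In glp-1 the smallest p belonged to gsto-2, an omega-class gene. Its arrays read 5.00, 5.00, 5.29 and 5.29 in controls and 6.07, 5.00, 6.37 and 6.24 after UVC. Control arrays were at or near the floor and 1 exposed array was too, and the difference of 0.78 (SE 0.20) had a limma adjusted p of 0.39. With the 2008 arrays alone the difference was 1.02 and passed (limma adjusted p = 0.031), and with array weights it was 0.96 (limma adjusted p = 0.012).

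Lower values after UVC in glp-1 were found for gst-23, at 7.25, 6.42, 5.61 and 5.38 in controls and 5.25, 5.52, 5.00 and 5.20 after exposure (difference -0.92, SE 0.27, limma adjusted p = 0.49). For gst-32 the controls read 5.67, 5.46, 5.25 and 5.00 and the exposed arrays 5.79, 5.80, 5.54 and 5.61 (difference 0.34, SE 0.11, limma adjusted p = 0.53). Neither passed, and the levels of gst-32 were close to the floor throughout. With array weights the difference of gst-32 was 0.43 and passed (limma adjusted p = 0.030).

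**Figure D4:**
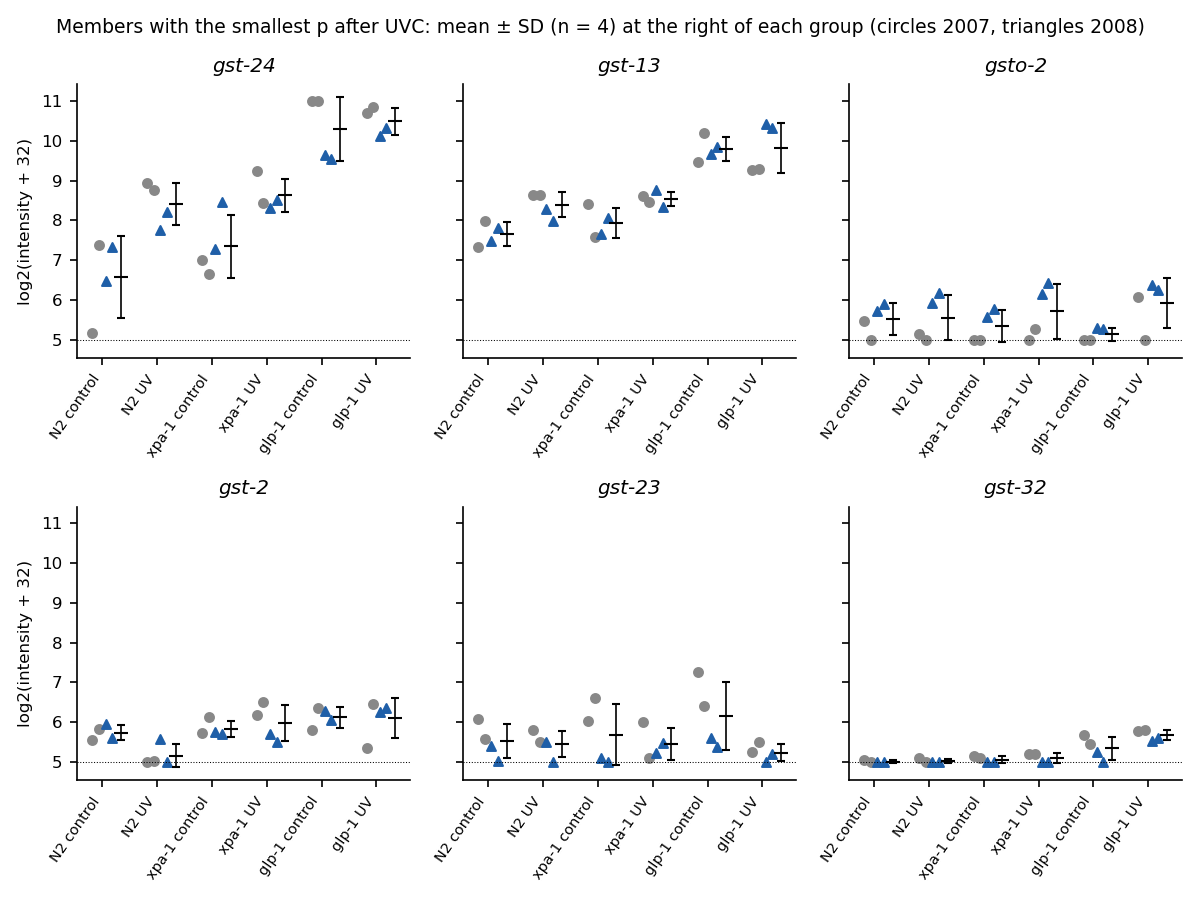
Log2(intensity + 32) on the vertical axis in every array, by strain and treatment, for gst-24, gst-13, gsto-2, gst-2, gst-23 and gst-32, which were among the members with the smallest p for UVC; circles are 2007 arrays, triangles 2008 arrays, the bar at the right of each group is the mean ± SD (n = 4), and the dotted line is the floor of 5.00. The exposed N2 arrays of gst-24 lie above its N2 controls, and no array of gsto-2, gst-2 or gst-32 exceeds 6.52.

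The difference of the UVC effect between strains passed for 0 members, for xpa-1 against N2 and for glp-1 against N2 (0% of all probe sets in each). At an unadjusted p under 0.05 there were 1 and 5 members, against 2% and 4.14% of all probe sets, and array weights called 0 in both. The smallest p for glp-1 belonged to gsto-2 (0.74, SE 0.29), followed by gst-24 and by gst-15 (-1.56, SE 0.67), all with a limma adjusted p of 0.995. For xpa-1 the smallest belonged to gst-2 (0.73, SE 0.35, limma adjusted p = 1).

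The loss of xpa-1 was compared with N2 in the same way. No member passed in untreated animals (0.00887% of all probe sets called) or after UVC (0.0133%), with 1 member in each at an unadjusted p under 0.05, against 3.73% and 3.03% of all probe sets, and 0 by array weights. Without UVC the member was gst-18, which read 5.00, 5.00, 5.50 and 5.20 in N2 and 6.09, 6.23, 5.27 and 5.39 in xpa-1. Only the 2007 arrays were higher, and the difference was 0.57 (SE 0.22, limma adjusted p = 1). After UVC it was gst-2, at 5.00, 5.04, 5.59 and 5.00 in N2 and 6.19, 6.52, 5.70 and 5.51 in xpa-1 (difference 0.82, SE 0.25, limma adjusted p = 1). The median member difference was 0.060 without UVC and 0 with it.

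Many family members lie next to each other in the genome. In the order of protein-coding genes in the RefSeq table (WBcel235), 22 measured members lay in 5 runs with no other protein-coding gene between them. Of these 22, 12 rose and 1 fell in untreated glp-1 animals with a median of 0.69, and of the 23 members outside such runs 11 rose with a median of 0.90. Over all probe sets 19.7% passed upward and 18% downward in this comparison. The run gst-26, gst-27, gst-28, gst-29, gst-39 and gst-31 had 5 of 6 higher, and differences from 0.026 to 3.35. In the run of 9 that starts with gst-20, gst-24 and gst-15, those 3 rose and the other 6 did not pass. Opposite directions stood side by side in the run gst-6, gst-7 and gst-8, with differences of 2.12 and -0.68 for the first pair. Of the members, 8 were read by probe sets of the type that can match several similar transcripts, gst-20 and gst-27 among them, so their values may mix close relatives.

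**Figure D5:**
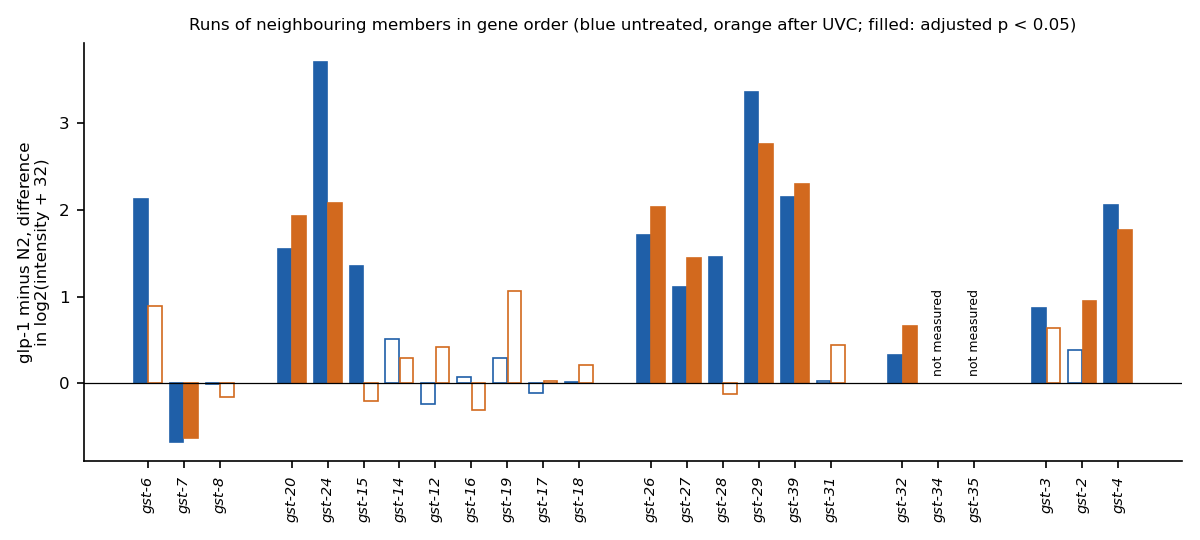
Difference between glp-1 and N2 in log2(intensity + 32) on the vertical axis for members in runs of neighbouring genes, in gene order and with a gap between runs; blue bars are untreated animals, orange bars are after UVC, and filled bars have an adjusted p under 0.05. In the run from gst-26 to gst-31, 5 of 6 untreated bars are filled, and gst-6 and gst-7 point in opposite directions.

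In the rest of the glutathione pathway, some genes differed between untreated glp-1 and N2 animals, in both directions. Of 30 measured genes for glutathione synthesis, recycling and use, 12 rose, 2 fell and 16 did not pass, with a median of 0.22. Over all probe sets 37.7% passed in this comparison, 19.7% upward and 18% downward. The gene gcs-1, for the enzyme of the first step of glutathione synthesis, rose by 0.80 (SE 0.19, limma adjusted p = 0.0017), and gss-1, for the final step, fell by 0.46 (SE 0.15, limma adjusted p = 0.023). The glutathione peroxidase genes gpx-5 and gpx-1 rose by 1.90 and 1.52 (limma adjusted p = 2.3e-05 and 0.00017). The gene cth-2, for a cystathionine gamma-lyase that supplies cysteine, rose by 1.32 (limma adjusted p = 2.2e-05). After UVC, 9 rose and 3 fell, against 20.3% upward and 19.5% downward over all probe sets.

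ABC transporter genes listed as candidates for carrying glutathione conjugates out of cells were nearly all different in glp-1. Whether each of them carries such conjugates was not tested. Of 9 genes, 6 rose and 2 fell, both with and without UVC. Over all probe sets 37.7% passed without UVC and 39.9% with it, in either direction. The largest rise was that of mrp-6, by 2.41 (limma adjusted p = 3.3e-06), and mrp-4 fell by 1.98 and mrp-7 fell by 3.59 (limma adjusted p = 1.0e-09 and 1.8e-08).

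Of 26 measured regulators of detoxification genes, 10 rose, 6 fell and 10 did not pass in untreated glp-1 animals. The share over all probe sets was 19.7% upward and 18% downward. The transcript of skn-1 itself had a difference of -0.35 (SE 0.25) that did not pass (limma adjusted p = 0.30), and wdr-23, whose product leads SKN-1 to degradation, rose by 0.54 (SE 0.19, limma adjusted p = 0.032). The intestinal GATA factor gene elt-2 rose by 1.69 and the MAP kinase kinase gene sek-1 by 1.16 (limma adjusted p = 9.3e-06 and 8.6e-06). In this list, elt-2 was also counted among the intestinal markers above and elt-3 among the hypodermal ones. The gene hcf-1, for a repressor of stress response genes, fell by 3.19 (limma adjusted p = 1.0e-10). With UVC, 10 rose and 7 fell, against 20.3% upward and 19.5% downward over all probe sets.

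None of these pathway genes passed for the mean effect of UVC over the 3 strains, by limma with correction over all probe sets. At an unadjusted p under 0.05 there was 1 gene in the glutathione list, 2 among the transporters and 1 among the regulators. Over all probe sets the share was 6.28%. The nearest were cbs-1, for a cystathionine beta-synthase (-0.66, SE 0.24), mrp-2 (0.46, SE 0.18) and elt-3, a GATA factor gene of the hypodermis (-0.73, SE 0.16), with limma adjusted p-values of 0.66, 0.67 and 0.19.

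The year of the experiment was also visible in the family. In 2008 against 2007, 15 members passed, 11 higher and 4 lower, which is 33.3% of members against 52.1% of all probe sets (24.1% upward and 28% downward). The year cannot be told apart from the amplification kit and the amount of RNA. Markers moved with the year as well: 14 of 18 sperm markers were lower in 2008, with a median difference of -2.33, and 7 of 8 oocyte markers were higher, with a median of 0.87. Their part in the members' differences was not tested. The greatest rise was that of gst-20, by 1.73 (SE 0.28, limma adjusted p = 0.00013), and the greatest fall that of gst-38, by 1.26 (SE 0.20, limma adjusted p = 9.8e-05). The model used for strain and UVC carries a term for year, so this shift is removed from the differences above where it is the same in all groups.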

How the data were processed

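Per the labels, RNA was read on Affymetrix arrays after amplification from 500 pg of RNA with a TargetAmp kit (2007) or 100 ng with an Affymetrix 2-cycle kit (2008). The deposited values are intensity on a linear scale, 18.6% of them below 0; the sources used here do not say how the authors summarised, background-corrected or scaled them. All 24 columns of the table belong to a sample.

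The log2 medians of the columns spanned 2.62, so intensities were quantile normalized over the 24 arrays, negative values became 0, and the log2 of each value plus 32 was used. The model in limma (3.58.1, R 4.3.3) had a mean per group and a term for year, with 17 residual degrees of freedom. The p-values are two-sided, and the adjustment is by Benjamini-Hochberg over 22548 probe sets. The year comparison used a mean per group and year. Probe sets were named from GEO's platform annotation (20766 with 1 gene, 887 with several, 895 with none). Plots used matplotlib (3.10.9).

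The members, the gene lists and the tests were chosen with earlier results of these data known. Values are given for the 10 largest rises and the falls among members called in untreated glp-1 against N2, for the members with the smallest p in other comparisons, and for some fixed names; gst-26, gst-36 and the members whose calls differed between the glp-1 comparisons were added after their values were seen. In other lists, named genes had the smallest p, with skn-1, wdr-23, gcs-1 and, added afterwards, gss-1. The fit was tested on simulated data.

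The differences and p-values above came from models without pairs. Equal replicate numbers were matched only in the replicate block, an alternative fit. Replicate differences correlated above 0.1 in both years for glp-1 with against without UVC (0.11 and 0.39) and for xpa-1 against N2 after UVC (0.18 and 0.30). Array number limits the precision of every value. Alternatives tried were other scalings, added constants, a filter on dim probe sets, each year alone, a year term per strain, other variance settings, array weights, a replicate block, the mean over probe sets and each array left out.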

Additional observations from a re-analysis of the deposited data

Results flagged for a closer look

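Among 28 members examined in 159 groups of 4 arrays, 17 groups held an array far from the other 3 by Dixon's test. In 7 of the 17 the other 3 arrays all sat at the floor of 5.00, where any value above it stands out. The other 10 are set against a chance rate of about 1 in 20 groups. All 17 are listed here, the floor cases included. In N2 controls the far arrays were gst-6 at a log2 level of 6.28 in the second 2008 array (others 5.00 to 5.06). They were also gst-32 at 5.06 in the first 2007 array and gst-8 at 5.03 in the second 2007 array, with the others at 5.00. In N2 after UVC they were gst-2 at 5.59 in the first 2008 array (others 5.00 to 5.04) and gst-32 at 5.12 in the first 2007 array.

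In xpa-1 controls the values were gsto-3 at 7.05 (others 8.41 to 8.60) and gst-2 at 6.14 in the second 2007 array, gst-27 at 8.74 in the first 2007 array (others 9.75 to 9.85), and gst-8 at 5.34 in the second 2008 array. In xpa-1 after UVC they were gst-31 at 7.81 (others 5.55 to 5.73) and gst-40 at 7.17 in the second 2007 array, and gst-33 at 5.28 and gst-8 at 5.15 in the first 2007 array. In glp-1 controls they were gst-29 at 9.65 and gsto-1 at 10.23 in the first 2008 array, and gst-27 at 9.95 and gst-11 at 5.31 in the first 2007 array. For gst-27 and gst-29 the glp-1 control arrays still all lay above the N2 controls.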

How the results depend on the processing

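All 24 members called between untreated glp-1 and N2, and all 19 called after UVC, kept their sign under every alternative in which they were tested; the filter on dim probe sets left 20 and 16 of them. The counts fell from 24 to 10 and from 19 to 12 with intensities as deposited. There the share of higher calls after UVC was 10 of 12 in place of 18 of 19. With the 2007 arrays alone the counts fell to 8 and 5. With a year term per strain they were 15 in untreated animals and 16 after UVC. That fit gives the strain difference at 2007, not the mean of both years. Its lower counts therefore do not show what such a term alone would change. The counts rose to 28 and 28 with array weights and to 27 and 26 with the 2008 arrays alone. The median of all probe sets moved from 0.065 and 0.12 to -0.093 and -0.13 as deposited and to 0.15 and 0.31 with 75th percentile scaling. Leaving out each array gave 18 to 25 calls untreated, the fewest without the second N2 control array of 2007, and 16 to 22 after UVC, the fewest without the second glp-1 UVC array of 2008; the UVC, xpa-1 and difference comparisons stayed at 0 to 0, and the year comparison at 14 to 19. For glp-1 with against without UVC, 2 members passed with the 2008 arrays alone (gst-9, gsto-2) and 2 with array weights (gst-32, gsto-2). For xpa-1, 3 passed with array weights (gst-13, gst-26, gsto-2). For the mean UVC effect 1 passed with 2008 alone (gsto-2) and 6 with array weights (gst-13, gst-24, gst-26, gst-30, gst-41, gsto-2). The year comparison gave 41 calls as deposited and 41 with quantile normalization within each year, settings that keep the brightness gap between years. Signs turned for gst-6 in glp-1 against N2 after UVC (-0.054 with 2007 alone), for gst-18 in untreated xpa-1 against N2 (-0.020 with 2008 alone) and for gst-31 in xpa-1 against N2 after UVC (-0.017 with 2008 alone). With the replicate block, 23 and 20 members were called between glp-1 and N2 and 0 in every other comparison of strain or UVC. It thus changed no call in the comparisons whose replicate differences correlated in both years. The counts under these alternatives are not set against the share of all probe sets called under the same setting. The causes of these changes were not tested.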
